A study of Mus musculus with 4 samples.

Results

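Nuclear-encoded genes of oxidative phosphorylation were examined in RNA-seq of mouse embryonic stem cells (mESCs), some wild type (WT) and some labelled *Spen* KO. Members were the protein-coding genes of the GENCODE vM1 annotation whose symbols begin with Nduf followed by a, b, c, s or v, with Uqcr, with Cox and a digit from 4 to 8, or with Atp5, together with *Sdha*, *Sdhb*, *Sdhc* and *Sdhd*. The rule took 92 of 37310 genes, namely 43 for complex I, 4 for complex II, 8 for complex III, 19 for complex IV and 18 for complex V. It also took some genes whose products are not subunits of the complex they are counted under, and these are named as such below. The assembly factors *Ndufaf1* to *Ndufaf4* are among them, and so is *Cox4nb*, which encodes a subunit of a membrane complex of the endoplasmic reticulum.

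The study compared 2 groups of 2 libraries. Both came from HATX mESCs of mixed genomic background, kept in serum and LIF on gelatin without treatment, and both carry a doxycycline-inducible *Xist* transgene. The WT group is 1 line and the other group is clone 2 of a *Spen* deletion in that line, so any other difference between the clone and the line is part of every comparison. The study calls the cells haploid and describes the deletion once as full and once as covering most of the gene. *Spen*, which encodes an RNA-binding repressor protein, had 3716 and 3047 normalized counts in WT and 7797 and 6242 in the libraries labelled KO. Its counts were higher in the libraries whose label says that the gene is deleted (log2 fold change 1.05 ± 0.21 SE, DESeq2 adjusted p = 7.28e-06). A count over the whole gene does not show which part of it the reads came from, so it neither checks the deletion nor speaks against the label. The group is called KO-labelled here after that label.

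Total counts ranged from 36667685 to 61908422 per library, and 21850 to 22591 genes had at least 1 count. Every one of the 7 markers of embryonic stem cells was present, with summed normalized counts of 181032 to 197319 per library. Summed counts of 5 other lists were far smaller. Trophoblast markers summed to 1647 and 1571 in WT and to 744 and 732 in KO-labelled libraries, with 1 of 5 markers (*Elf5*) at under 10 counts in all. Primitive endoderm markers summed to between 331 and 394 in WT and between 188 and 206 in KO-labelled libraries, fibroblast markers between 170 and 183 and between 420 and 479, and over all 4 libraries striated muscle markers between 533 and 585 and two-cell-like markers between 175 and 314. Most of the fibroblast sum was *Thy1* (118 and 137 against 356 and 414), while *Col1a1* did not pass and *Col1a2* and *Col3a1* had fewer counts in KO-labelled than in WT libraries. The part of these marker differences in the values below was not tested, and in bulk RNA fewer cells of a type cannot be told apart from less RNA per cell. Nothing in the labels says that replicates were separate cultures, so p-values measure the spread between these libraries, which may be technical.

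Oxidative phosphorylation makes most of the ATP of many tissues. Electrons from NADH enter at complex I and those from succinate at complex II, pass through ubiquinone to complex III and by cytochrome c to complex IV, which reduces oxygen. Complexes I, III and IV pump protons out of the mitochondrial matrix, and complex V, the ATP synthase, lets them return. Each complex other than complex II mixes subunits made from nuclear genes with subunits made from mitochondrial DNA, so subunit genes spread over many chromosomes feed assemblies of fixed composition. Mouse embryonic stem cells are known to respire actively while also using glycolysis.

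Promoter sequences are shown first, because respiratory genes are known for binding sites of NRF1, of ETS factors such as GABP, and of YY1. Windows of 300 bases, from 250 before to 50 after the start site, came from RefSeq (GRCm38.p6) and matched 74 of the 92 members. 4 sets of letters were searched on both strands, and a match is a description and not a bound site. The NRF1 letters GCGCATG were in 14 of 74 member promoters (18.9%) and in 5.39% of those of 17491 coding genes. The ETS letters CCGGAAG were in 17 (23.0%) against 12.9%, the YY1 letters AAGATGG in 12 (16.2%) against 7.18%, and CCAAT in 34 (45.9%) against 42.3%. None of these sets overlaps another in the stretches printed here, but the NRF1 letters overlap their own reverse complement in *Ndufa11*. The stretches below belong to 3 members that were higher in KO-labelled libraries and 3 that were lower, members described below with a match before the start. All of their bases lie before the RefSeq start site, they run 5′ to 3′ on the strand of the gene, and capitals mark the letters searched or their reverse complement.
*Ndufs3* (chr2:90904722-90904768, minus strand, higher): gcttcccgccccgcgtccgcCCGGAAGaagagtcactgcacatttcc
*Ndufaf1* (chr2:119662835-119662872, minus strand, higher): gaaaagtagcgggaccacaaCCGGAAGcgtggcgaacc
*Cox6b1* (chr7:30626116-30626162, minus strand, higher): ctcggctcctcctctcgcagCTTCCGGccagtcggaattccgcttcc
*Ndufa11* (chr17:56717682-56717731, plus strand, lower): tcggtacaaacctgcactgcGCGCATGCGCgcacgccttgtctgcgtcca
*Sdhb* (chr4:140961198-140961244, plus strand, lower): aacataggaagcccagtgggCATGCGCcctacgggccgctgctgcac
*Atp5j* (chr16:84835011-84835084, minus strand, lower): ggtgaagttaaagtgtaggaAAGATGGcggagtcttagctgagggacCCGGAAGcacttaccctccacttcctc
Among members with a promoter window and a test result, the ETS letters were in 7 of 21 higher, 2 of 9 lower and 8 of 43 others. The NRF1 letters were in 2 of 21 higher, 2 of 9 lower and 10 of 43 others, and the 2 lower ones are *Ndufa11* and *Sdhb*. The 2 higher ones are *Ndufb8* and *Cox6a1*, and *Cox6a1* has an ETS match as well. The 2 lower members with ETS letters are *Atp5j*, beside a YY1 match, and *Sdhb*, outside the stretch printed. The YY1 letters were in 3 of 21 higher, 2 of 9 lower and 7 of 43 others, and CCAAT was in 13 of 21, 3 of 9 and 18 of 43.

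Of the 92 members, 87 had an adjusted p value, and 82 had a mean of 500 or more normalized counts. No member passed the thresholds of the study, a fold change of at least 2 with an adjusted p under 0.001, either in DESeq2 or in edgeR, while 4.77% of the 16750 genes tested did so in DESeq2 (1.44% higher and 3.33% lower). Of the 87 members 45 (51.7%) had an unadjusted p under 0.05, against 41.6% of all genes tested and 56.1% of those with a mean of at least 500. At an adjusted p under 0.05 with no minimum fold, 30 members were higher and 9 lower in KO-labelled libraries. That is 34.5% and 10.3% of members, against 17.5% and 16.7% of all genes tested (34.2% in either direction). Among the 8775 genes with a mean of at least 500, a set closer to the members in depth, 27.1% were higher and 20.4% lower.

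The differences were small. The 39 called members had absolute log2 fold changes of 0.18 to 0.90, and the median over all 87 was 0.075, against 0.010 over all genes tested and 0.052 over genes with a mean of at least 500. Both KO-labelled libraries lay above both WT libraries for 44 members and below them for 21, which is to be read beside 36.4% and 35.1% of all genes tested, and groups overlapped for the other 22. No called member had overlapping groups. A call at such small differences with 2 libraries a group nearly requires this, so separate groups are no further support for a call here or below. Replicates of a member differed by a median of 0.076 (log2) in WT and 0.099 in KO-labelled libraries, against a median absolute log2 fold change of 0.21 between groups. That median was 0.23 over genes with a mean of at least 500 and 0.30 over all genes tested. The counts depend on the number of libraries: 14 members were higher without WT replicate 2, 19 without KO-labelled replicate 1 and 15 without KO-labelled replicate 2, and 5 were lower without WT replicate 1 or without KO-labelled replicate 2. With the median log2 fold change of each chromosome removed, 18 were higher and 2 lower (20.7% and 2.30%), beside 12.4% and 14.9% of all genes tested. The median over members was then 0.070. The number of calls thus depends on this scaling, while more members were higher than lower on both scales.

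**Figure D1:**
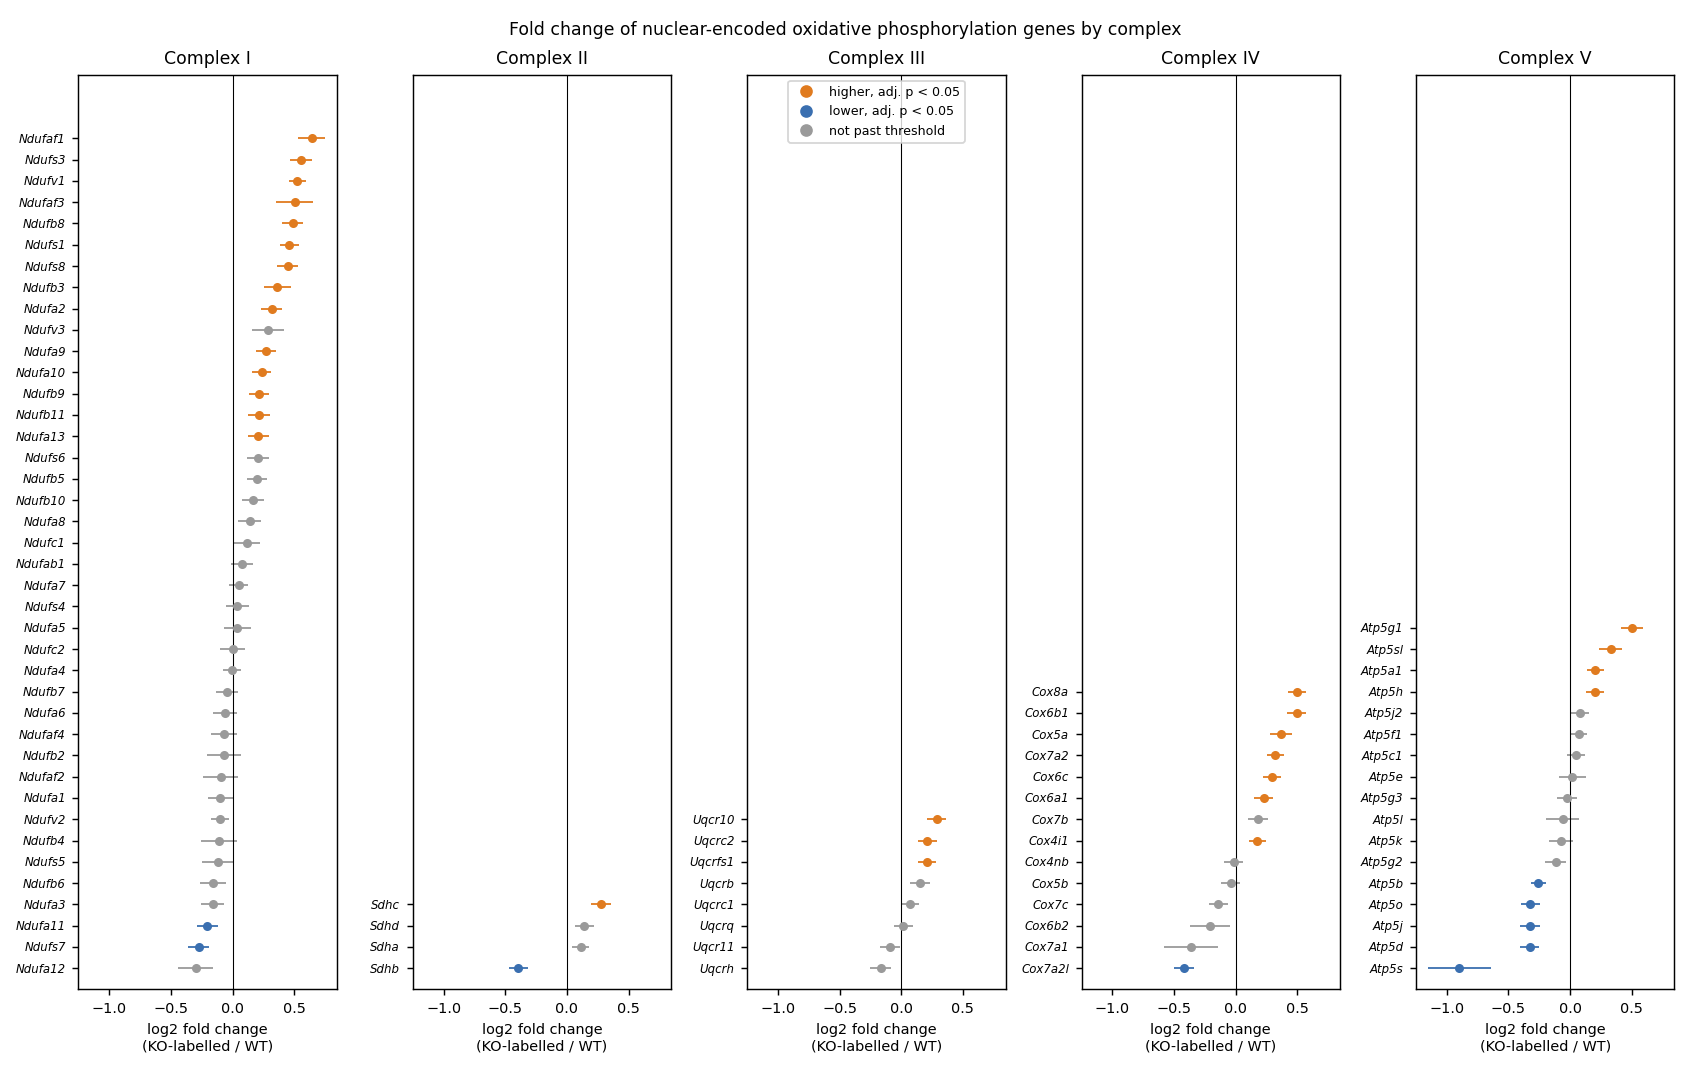
Log2 fold change (KO-labelled over WT) with its standard error for 83 members whose mean normalized count was 50 or more, by complex. Orange points passed an adjusted p of 0.05 as higher, blue points as lower and grey points did not pass. Called members ran from -0.90 (*Atp5s*) to 0.64 (*Ndufaf1*).

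Complex I takes electrons from NADH and passes them along iron-sulfur clusters to ubiquinone. Of 42 members tested 15 were higher and 2 lower (35.7% and 4.76%, beside 17.5% and 16.7% of all genes tested), with a median log2 fold change of 0.13, and 9 were higher and 1 lower with chromosome medians removed. Of its 7 nuclear-encoded core subunits, those shared with bacteria, 5 were higher and 1 lower, with a median of 0.45. Among 29 accessory subunits 8 were higher and 1 lower (median 0.075), and among 4 assembly factors 2 were higher.

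*Ndufv1* encodes the subunit that binds NADH and flavin (chr19:4007497-4012806 in mm9). Its normalized counts were 7370 and 7549 in WT and 10864 and 10613 in KO-labelled libraries, a log2 fold change of 0.53 ± 0.07 (DESeq2 adjusted p = 7.98e-13). *Ndufs1*, the largest iron-sulfur subunit (chr1:63190170-63223396), had 8254 and 7868 in WT and 10606 and 11575 in KO-labelled libraries (0.46 ± 0.08, DESeq2 adjusted p = 1.42e-08). *Ndufs3*, a core subunit of the arm that reaches into the matrix (chr2:90734791-90744984), had 2006 and 2011 against 2924 and 2981 (0.56 ± 0.09, DESeq2 adjusted p = 7.85e-09). For these 3 genes the groups lay far apart relative to their replicates, as the plot of core subunits by library shows. In *Ndufs3*, however, 66.3% of the bases of its longest coding transcript lie in stretches of 48 bases that recur elsewhere in the genome, so its counts may hold reads of copies.

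*Ndufs8*, an iron-sulfur subunit next to the quinone site, had 3210 and 2982 in WT and 4081 and 4353 in KO-labelled libraries (0.45 ± 0.09, DESeq2 adjusted p = 2.28e-06). *Ndufs7*, which holds the last iron-sulfur cluster before ubiquinone, went the other way, with 2949 and 3074 against 2509 and 2465 (-0.28 ± 0.09, DESeq2 adjusted p = 0.00654). The groups were apart in both, but the call of *Ndufs7* was lost whichever library was left out (-0.24 to -0.30). With chromosome medians removed neither gene passed (*Ndufs7* 0.070, *Ndufs8* 0.064). The ratio of *Ndufs8* to *Ndufs7*, neighbours in the assembled complex, was 1.09 and 0.970 in WT and 1.63 and 1.77 in KO-labelled libraries. Pairs for this and later ratios were not set in advance, and separate groups in a ratio follow in part from the choice of pair. *Ndufv2*, partner of *Ndufv1*, had 7035 and 6917 against 6298 and 6676, which did not pass (-0.10 ± 0.07, DESeq2 adjusted p = 0.296).

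The assembly factor *Ndufaf1* (chr2:119481182-119488563) had the largest fold change of any called member that was higher. Its normalized counts were 1103 and 1064 in WT and 1656 and 1727 in KO-labelled libraries (0.64 ± 0.11, DESeq2 adjusted p = 4.57e-08). *Ndufaf3* was also higher (0.50 ± 0.15, DESeq2 adjusted p = 0.00389), whereas *Ndufaf2* and *Ndufaf4* had values of -0.096 and -0.070 and did not pass. The 8 accessory subunits that were higher were *Ndufb8* (0.49), *Ndufb3* (0.36), *Ndufa2* (0.32), *Ndufa9* (0.27), *Ndufa10* (0.24), *Ndufb9* (0.22), *Ndufb11* (0.22) and *Ndufa13* (0.21). The lower one was *Ndufa11*, a membrane subunit whose normalized counts were 4602 and 4584 in WT against 3801 and 4166 in KO-labelled libraries (-0.21 ± 0.08, DESeq2 adjusted p = 0.0405). It sat at the threshold, and its call was lost whichever library was left out (-0.13 to -0.27). A second entry named *Ndufb8*, a read-through with *Sec31b*, had 0 counts in every library.

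*Ndufa4*, named for complex I but now placed in complex IV, had 6201 and 6255 in WT and 6371 and 6036 in KO-labelled libraries, so its groups overlapped (-0.0058 ± 0.07). Its paralogue *Ndufa4l2*, known as a hypoxia-induced gene, had 25.2 and 32.7 against 45.3 and 29 (0.35 ± 0.60, DESeq2 adjusted p = 0.708). Per kilobase of exon it made up 0.208% to 0.363% of the pair in each library.

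Complex II, succinate dehydrogenase, also works in the citric acid cycle and is made from nuclear genes alone. Its 4 subunit genes did not move together: *Sdhc* was higher, *Sdhb* lower and the remaining pair did not pass. Their median log2 fold change of 0.13 was 0.059 without KO-labelled replicate 2, 0.20 without KO-labelled replicate 1 and 0.066 with chromosome medians removed. *Sdhb*, the iron-sulfur subunit (chr4:140517118-140535108), had normalized counts of 5849 and 5850 in WT and 4267 and 4630 in KO-labelled libraries, a log2 fold change of -0.39 ± 0.08 (DESeq2 adjusted p = 5.78e-06). *Sdhc*, a membrane anchor (chr1:173057296-173080734), had 3589 and 3670 against 4307 and 4473 (0.27 ± 0.08, DESeq2 adjusted p = 0.00284), and its call was lost without WT replicate 1 (0.26) or without KO-labelled replicate 2 (0.25). For both genes the KO-labelled libraries lay wholly outside the WT pair.

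*Sdha*, the flavoprotein, had 17162 and 16034 in WT and 17212 and 18621 in KO-labelled libraries (0.11 ± 0.07, DESeq2 adjusted p = 0.250). *Sdhd*, the other anchor, had 8049 and 7996 against 8357 and 9319 (0.14 ± 0.08, DESeq2 adjusted p = 0.159). The ratio of *Sdhc* to *Sdhb* was 0.614 and 0.627 in WT and 1.01 and 0.966 in KO-labelled libraries. The ratio of *Sdhd* to *Sdhb* was 1.38 and 1.37 against 1.96 and 2.01. Ratios within a library do not depend on size factors, and with 2 libraries a group the smallest possible exact permutation p is 0.333, which both ratios reached. With chromosome medians removed neither *Sdhb* (-0.19, DESeq2 adjusted p = 0.0603) nor *Sdhc* (0.17, DESeq2 adjusted p = 0.0973) passed.

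**Figure D2:**
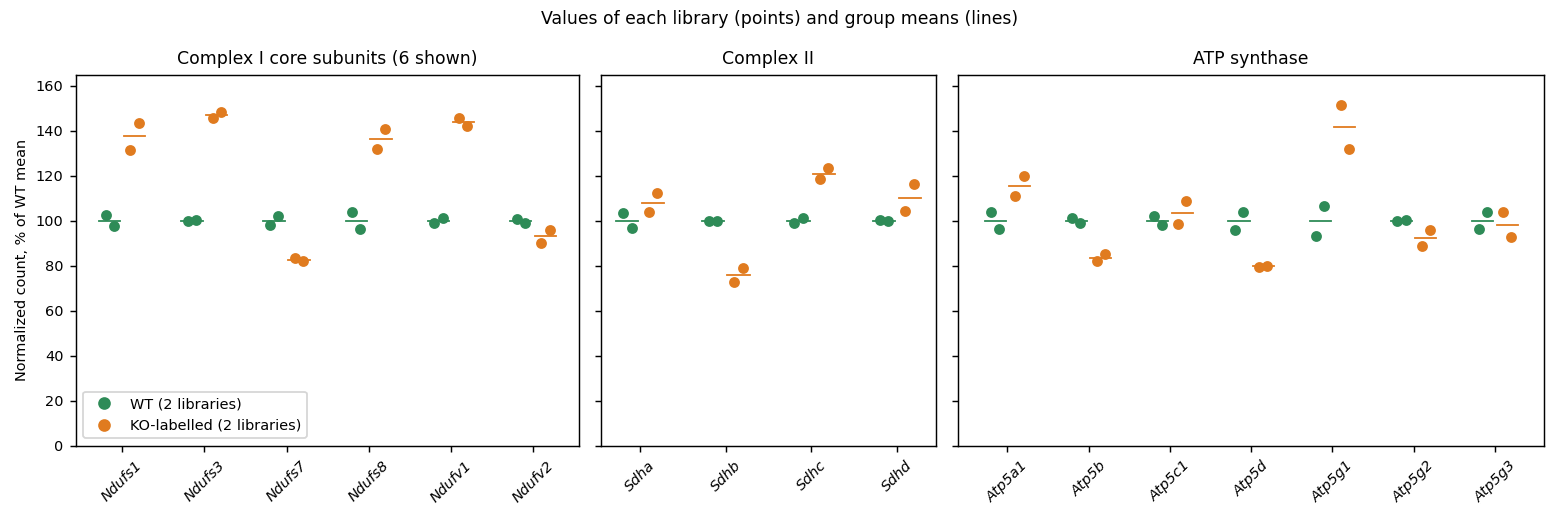
Normalized counts of each library as a percent of the WT mean for 6 core subunits of complex I, for complex II and for selected ATP synthase subunits, with points for libraries and short lines for group means. Within each complex some subunit genes lie above the WT pair in KO-labelled libraries (*Ndufv1*, *Sdhc*, *Atp5a1*) and others below it (*Ndufs7*, *Sdhb*, *Atp5b*).

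Complex III carries electrons from ubiquinol to cytochrome c. Of its 8 members 3 were higher and none lower (37.5% and 0%, beside 17.5% and 16.7% of all genes tested). The median was 0.11, and 4 members had an unadjusted p under 0.05. The counts were 3 and 0 in edgeR and 2 and 0 with chromosome medians removed, where *Uqcr10* (0.12) and *Uqcrc2* (0.12) did not pass. *Uqcrfs1*, the Rieske iron-sulfur protein, had normalized counts of 5075 and 4991 in WT and 5886 and 5752 in KO-labelled libraries (0.21 ± 0.07, DESeq2 adjusted p = 0.0175). *Uqcr10*, a small subunit, had 6140 and 5825 against 7442 and 7154 (0.29 ± 0.07, DESeq2 adjusted p = 0.000675). *Uqcrc2*, one of the large matrix-side core proteins, had 9747 and 8948 against 10440 and 11182 (0.21 ± 0.08, DESeq2 adjusted p = 0.0198). All 3 had separate groups, although *Uqcrfs1* lost its call whichever library was left out (0.20 to 0.23), *Uqcr10* without WT replicate 2 (0.25) or KO-labelled replicate 1 (0.27), and *Uqcrc2* without WT replicate 2 (0.15) or KO-labelled replicate 2 (0.16). *Uqcrc1*, the other large core protein, had 12608 and 13139 against 13402 and 13689, which did not pass (0.073 ± 0.07, DESeq2 adjusted p = 0.445). *Uqcrb*, *Uqcrq*, *Uqcr11* and *Uqcrh* had values of 0.15, 0.018, -0.091 and -0.17 and did not pass.

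Complex IV, cytochrome c oxidase, surrounds a core made from mitochondrial DNA with small nuclear-encoded subunits. Of 16 members tested 7 were higher and 1 lower (43.8% and 6.25%, beside 17.5% and 16.7% of all genes tested), with a median of 0.18. All 7 higher members were among the 10 broadly expressed accessory subunits. With chromosome medians removed 5 members were higher and 1 lower (median 0.095), beside 12.4% and 14.9% of all genes tested. *Cox6b1*, which faces the intermembrane space (chr7:31401993-31411170), had normalized counts of 4253 and 4500 in WT and 6353 and 5990 in KO-labelled libraries (0.50 ± 0.08, DESeq2 adjusted p = 5.80e-09). *Cox8a* (chr19:7289648-7292106) had 7588 and 7138 against 9951 and 10848 (0.50 ± 0.08, DESeq2 adjusted p = 1.35e-09), and *Cox7a2* (chr9:79603048-79607660) had 6862 and 6822 against 8476 and 8634 (0.32 ± 0.07, DESeq2 adjusted p = 3.38e-05). In each the KO-labelled libraries were both above the WT libraries. Of the longest coding transcript, 47.0% of bases recur elsewhere in the genome for *Cox8a* and 21.8% for *Cox6b1*.

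*Cox5a* (0.37 ± 0.09), *Cox6c* (0.29 ± 0.07) and *Cox6a1* (0.23 ± 0.08) were higher too, and *Cox4i1*, an early subunit in assembly and the gene with the highest level per kilobase of all members, was higher by 0.18 ± 0.07 (DESeq2 adjusted p = 0.0246). *Cox5a* lost its call without KO-labelled replicate 1 (0.33), and *Cox6a1* (0.19 to 0.27) and *Cox4i1* (0.15 to 0.21) lost theirs whichever library was left out. *Cox4i1* had 17425 and 18108 in WT and 19689 and 20482 in KO-labelled libraries. *Cox4nb*, whose start lies 178 bases from that of *Cox4i1* on the other strand, had 8079 and 8003 against 7569 and 8328, with overlapping groups (-0.017 ± 0.08). *Cox7b* (0.18), *Cox5b* (-0.041) and *Cox7c* (-0.14) did not pass, and *Cox7b* passed without WT replicate 1 (0.30).

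The lower member was *Cox7a2l*, a paralogue of *Cox7a2* known for joining complexes III and IV into supercomplexes (chr17:83901259-83913673). It had 5047 and 4835 in WT and 3560 and 3813 in KO-labelled libraries (-0.42 ± 0.08, DESeq2 adjusted p = 2.39e-06). The ratio of *Cox7a2l* to *Cox7a2* was 0.736 and 0.709 in WT and 0.420 and 0.442 in KO-labelled libraries, with no overlap (exact permutation p = 0.333, the smallest possible). Of the longest *Cox7a2l* coding transcript 73.3% of bases recur elsewhere in the genome, and for *Cox7a2* the share is 23.5%.

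Tissue isoforms of complex IV were far below their broadly expressed partners, and none of the 4 tested passed, with none at an unadjusted p under 0.05. *Cox6b2*, known from testis, was the most abundant of them, with 721 and 817 in WT and 764 and 570 in KO-labelled libraries (-0.21 ± 0.16, DESeq2 adjusted p = 0.365). Its ratio to *Cox6b1* was 0.170 and 0.182 in WT and 0.120 and 0.0952 in KO-labelled libraries, while only *Cox6b1* of the pair passed the test. *Cox7a1*, the heart and muscle isoform, had 320 and 267 against 241 and 214 (-0.36 ± 0.22, DESeq2 adjusted p = 0.213). *Cox4i2*, known from lung, had 14.6 and 12 against 17.4 and 32.9 (0.93 ± 0.79, DESeq2 adjusted p = 0.408). *Cox7b2*, *Cox8c*, *Cox8b* and *Cox6a2* had between 0 and 17.2 normalized counts in each library, and a difference in them was not detectable at this depth.

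**Figure D3:**
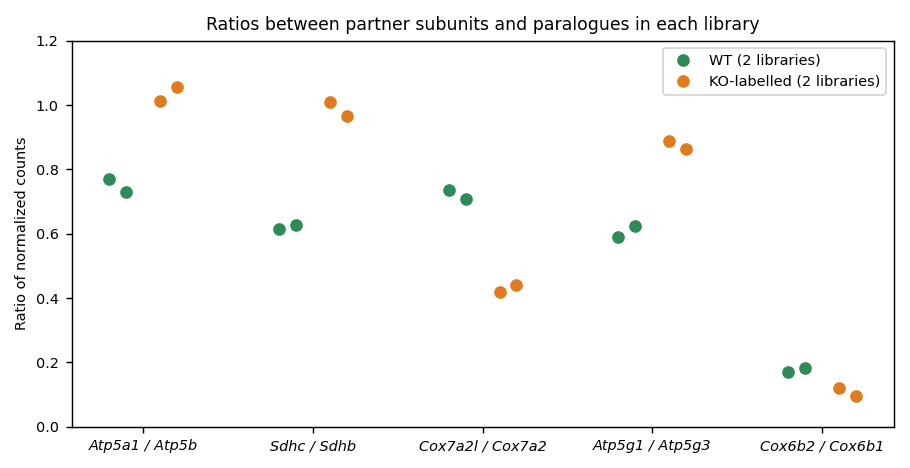
Ratio of the normalized counts of paired members in each library, with green points for the 2 WT libraries and orange points for the 2 KO-labelled ones. All 5 ratios have separate groups, with *Atp5a1* to *Atp5b*, *Sdhc* to *Sdhb* and *Atp5g1* to *Atp5g3* higher and *Cox7a2l* to *Cox7a2* and *Cox6b2* to *Cox6b1* lower in KO-labelled libraries. The pairs were not set in advance. Each holds a called member beside one that did not pass or was called the other way, so the separation follows in part from that choice.

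Complex V, the ATP synthase, couples the return of protons through a rotating ring to ATP synthesis in its matrix head. Of 17 members tested 4 were higher and 5 lower (23.5% and 29.4%, beside 17.5% and 16.7% of all genes tested). With chromosome medians removed 2 were higher and none lower, beside 12.4% and 14.9% of all genes tested. The complex V median of -0.026 became 0.027 without WT replicate 2, 0.012 with upper-quartile size factors and 0.095 with the trend on GC content and length removed. The head subunits moved apart. *Atp5b*, the catalytic beta subunit (chr10:127520329-127527447), had normalized counts of 94532 and 92398 in WT and 76671 and 79664 in KO-labelled libraries (-0.26 ± 0.06, DESeq2 adjusted p = 0.000187). *Atp5a1*, the alpha subunit (chr18:78012468-78021608), had 72816 and 67456 against 77749 and 84126 (0.21 ± 0.07, DESeq2 adjusted p = 0.0117). The alpha and beta proteins alternate in equal number in the head, and the ratio of their genes' normalized counts was 0.770 and 0.730 in WT and 1.01 and 1.06 in KO-labelled libraries (exact permutation p = 0.333, the smallest possible). *Atp5a1* lost its call without WT replicate 2 (0.16) or KO-labelled replicate 2 (0.15), and with chromosome medians removed neither passed (*Atp5b* 0.088, *Atp5a1* 0.077).

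The other head and stalk subunits were mixed. *Atp5d*, of the central stalk, had 5430 and 5876 in WT and 4501 and 4515 in KO-labelled libraries (-0.33 ± 0.08, DESeq2 adjusted p = 0.000226), and its call was lost without WT replicate 2 (-0.26). *Atp5j*, coupling factor 6 of the peripheral stalk, had 6372 and 5969 against 5110 and 4753 (-0.32 ± 0.08, DESeq2 adjusted p = 0.000333), and its call was lost without WT replicate 1 or KO-labelled replicate 2 (-0.27 in each). *Atp5o*, the subunit that ties the head to the peripheral stalk, had 5999 and 6306 against 4929 and 4922 (-0.32 ± 0.08, DESeq2 adjusted p = 0.000139), but its annotated span of 247290 bases overlaps *Donson* on the same strand, so some of its counts are uncertain. All 3 had separate groups. *Atp5h*, also of the peripheral stalk, was higher (0.20 ± 0.07, DESeq2 adjusted p = 0.0216), with 89.4% of its bases in copies. *Atp5c1* (0.050), *Atp5e* (0.020), *Atp5f1* (0.069), *Atp5j2* (0.083), *Atp5k* (-0.073) and *Atp5l* (-0.059) did not pass.

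Subunit c, which forms the ring, is made from 3 genes whose mature proteins are identical. *Atp5g1* (chr11:95930166-95936984) had normalized counts of 5666 and 6483 in WT and 9209 and 8019 in KO-labelled libraries (0.50 ± 0.09, DESeq2 adjusted p = 4.48e-07). *Atp5g2* had 3574 and 3595 against 3181 and 3438 (-0.11 ± 0.09, DESeq2 adjusted p = 0.324). *Atp5g3* had 9611 and 10389 against 10380 and 9271 (-0.026 ± 0.08, DESeq2 adjusted p = 0.849). Only *Atp5g1* of these passed. *Atp5g1* held 30.1% and 31.7% of the counts of the 3 genes in WT and 40.4% and 38.7% in KO-labelled libraries. Every base of *Atp5g2* and 35.9% of those of *Atp5g1* lie in copies, so reads between these genes and their copies may be shared.

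*Atp5s*, factor B, and *Atp5sl*, now named *Dmac2* in RefSeq, are not ATP synthase subunits. *Atp5s* (chr12:70825949-70845645) showed the largest fold change of any called member. Its normalized counts were 321 and 225 in WT and 145 and 147 in KO-labelled libraries (-0.90 ± 0.26, DESeq2 adjusted p = 0.00247). The WT libraries differed from each other more than in most members, and the call was lost without WT replicate 1 (-0.62) or either KO-labelled library (-0.88 and -0.90). *Atp5sl* had 1950 and 1871 against 2407 and 2393 (0.33 ± 0.09, DESeq2 adjusted p = 0.0021), a call lost without WT replicate 2 (0.30) or either KO-labelled library (0.33 and 0.34). *Atp5l-ps1* had at most 2.18 normalized counts.

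Summed over members, oxidative phosphorylation genes took 1.21% and 1.21% of all counts in WT and 1.27% and 1.29% in KO-labelled libraries, a difference with separate groups but of small size (exact permutation p = 0.333, the smallest possible). The difference of 0.065 percentage points was 0.043 without mitochondrial genes and the 10 highest genes. Mitochondrially encoded genes of all kinds took 2.54% and 1.71% of all counts in WT and 1.40% and 1.35% in KO-labelled libraries. The 13 messages among them took only 0.647% and 0.728% against 0.668% and 0.620%, with overlapping groups (exact permutation p = 0.667). The part of mitochondrial genes in the members' share was not tested beyond this. Complex I took 0.274% and 0.276% against 0.309% and 0.315%, and complex IV 0.213% and 0.213% against 0.237% and 0.232%. Complex V, which held the largest share, took 0.539% and 0.533% against 0.526% and 0.537%, with overlapping groups (exact permutation p = 0.667). Mean normalized counts per kilobase of exon were highest for *Cox4i1* (27873), *Atp5a1* (24095), *Atp5b* (20254), *Cox7c* (17785) and *Cox8a* (16296), and complex medians ran from 2052 for complex I to 8306 for complex IV among members with a mean of at least 50. These levels use the union of annotated exons, and *Ndufb2*, whose annotation overlaps *Adck2*, came out at 130 over a long union.

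Higher and lower members lay on different chromosomes. Among chromosomes 1 to 19 and X, the median log2 fold change of all genes with a mean of at least 50 was 0.38 on chromosome 19. It was under -0.1 on 5 chromosomes, namely 10 (-0.35), 12 (-0.32), 16 (-0.23), 4 (-0.21) and 17 (-0.14). The 13 mitochondrial genes of that depth had a median of -0.24. All 9 lower members lie on these 5 chromosomes, where 21 members were tested and none was higher. Of all 3843 genes tested there, 5.07% were higher and 32.2% lower. On the other chromosomes 66 members were tested, with 30 higher (45.5%) and none lower, against 21.2% and 12.1% of all 12907 genes tested there. These chromosomes were grouped after their values were seen, and the counts are descriptions without a test.

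All 4 members tested on chromosome 19, *Ndufv1*, *Cox8a*, *Ndufb8* and *Ndufs8*, were higher, as were 47.7% of all genes tested there, and with chromosome medians removed none of the 4 passed. Chromosome 1 held 6 members and 5 were higher, *Ndufs1*, *Ndufb3*, *Sdhc* and *Ndufa10* among them, while 22.0% of all genes tested there were. Opposed partners lie on chromosomes that differ in this way. *Sdhb* lies on chromosome 4 and *Sdhc* on 1, *Atp5b* on 10 and *Atp5a1* on 18, and *Ndufs7* on 10 and *Ndufs8* on 19. Across 84 members Pearson's r between their log2 fold change and the median of their chromosome was 0.69, a description over genes that share libraries and chromosomes and are not replicates. What sets the chromosome medians was not tested.

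**Figure D4:**
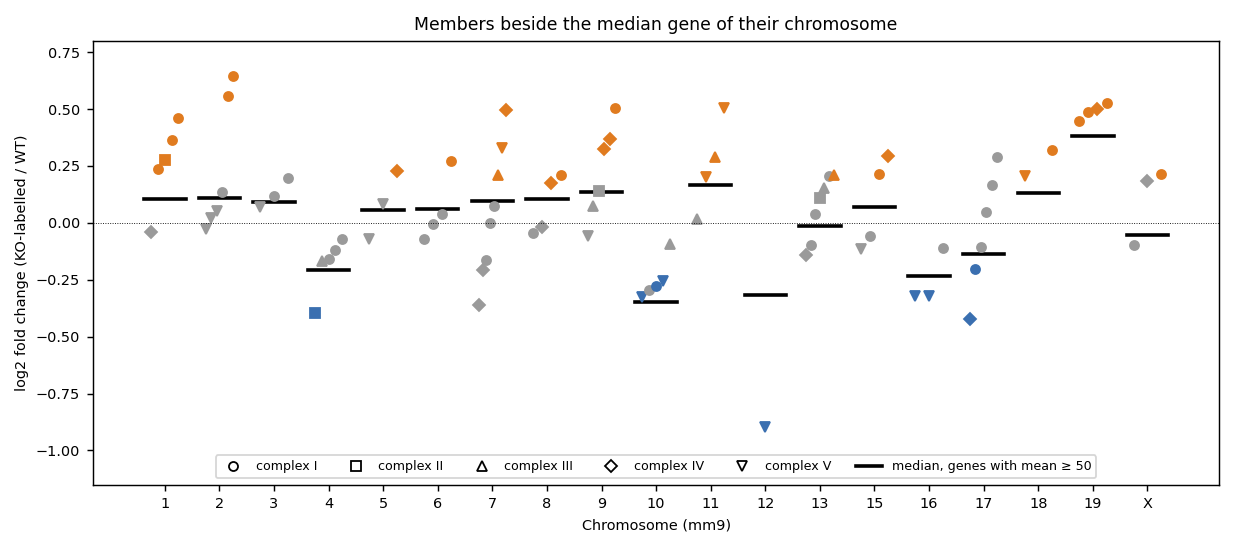
Log2 fold change of 83 members whose mean normalized count was 50 or more, by chromosome, with symbols for complexes and black bars for the median of all genes on the chromosome with a mean of at least 50. Blue points (lower) occur on chromosomes 4, 10, 12, 16 and 17, where the bars lie at -0.14 to -0.35, and all 4 members on chromosome 19 lie above its bar of 0.38.

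With each chromosome's median removed, 12 of the 30 higher members still passed, as did 1 of the 9 lower ones. The 12 were *Ndufaf1* (0.54), *Ndufs3* (0.45), *Cox6b1* (0.40), *Ndufs1* (0.36), *Atp5g1* (0.34), *Ndufb11* (0.27), *Atp5sl* (0.23), *Cox5a* (0.23), *Uqcrfs1* (0.23), *Cox6c* (0.22), *Ndufa9* (0.21) and *Cox7a2* (0.19). The lower one was *Cox7a2l* (-0.29, DESeq2 adjusted p = 0.00277). Another 6 members passed as higher on this scale alone, 4 of which lie on the 5 chromosomes with low medians, *Ndufv3* (0.42), *Ndufb10* (0.30), *Uqcr11* (0.25) and *Ndufa7* (0.18), beside *Cox7b* (0.24) and *Ndufs6* (0.22). *Ndufa3* (-0.26) passed as lower on this scale alone. The *Cox7a2l* and *Cox7a2* pair and the *Atp5g1* call were thus present on both scales, while the opposed calls in complex II and in the ATP synthase head were present on the first only.

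Many members share a promoter region with a neighbour on the other strand. Gene starts lay within 1000 bases of each other, without overlap of the genes, in 22 such pairs. Both genes passed in 3 pairs and then in the same direction, only the member passed in 7 and only the neighbour in 4. These counts are to be read beside the 34.2% of all genes tested that passed in either direction, and both genes of a pair lie on the same chromosome. *Ndufs1* and *Eef1b2*, a translation elongation factor gene, start 3 bases apart, and *Eef1b2* had 50862 and 50326 in WT and 49246 and 49281 in KO-labelled libraries (-0.038 ± 0.06, DESeq2 adjusted p = 0.685), without the difference seen for *Ndufs1*. Counts of *Ndufb3* and *Fam126b*, whose starts lie 61 bases apart, were both higher (0.36 and 0.32). *Ndufb3* did not pass with chromosome medians removed (0.26), and activity of the promoters was not measured.

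Other genes of the pathway were taken from lists drawn up with earlier results of these data known, and their counts are to be read beside the 17.5% of all genes tested that were higher and the 16.7% that were lower. Of 10 genes listed under electron carriers, *Cyc1* (0.24 ± 0.07) and *Coq5* (0.39 ± 0.09), for cytochrome c1 and a step of ubiquinone synthesis, were higher. Cytochrome c1 is a subunit of complex III whose gene the symbol rule did not take. *Cyct*, the testis form of cytochrome c, was lower, with 1297 and 1252 in WT and 730 and 786 in KO-labelled libraries (-0.75 ± 0.12, DESeq2 adjusted p = 1.29e-08), while somatic *Cycs* did not pass (-0.060 ± 0.09). Of 24 assembly factors tested outside the rule 5 were higher (20.8%) and 1 lower (4.17%). *Foxred1*, for complex I, was higher with 2337 and 2223 against 3667 and 3858 (0.72 ± 0.09, DESeq2 adjusted p = 5.42e-15), as were *Sdhaf2* (0.46), *Uqcc* (0.43), *Cox15* (0.43) and *Ecsit* (0.24), and *Atpaf1*, for the ATP synthase head, was lower (-0.44 ± 0.13). *Usmg5*, a small protein bound to ATP synthase, was higher (0.61 ± 0.08), and the inhibitor *Atpif1* did not pass (-0.20 ± 0.09). *Sdhaf2*, *Cox15* and *Usmg5* lie on chromosome 19 and *Atpaf1* on chromosome 4. With chromosome medians removed *Coq5*, *Cyct*, *Foxred1*, *Uqcc* and *Usmg5* (0.23) still passed, and *Cyc1* (0.17), *Sdhaf2* (0.078), *Cox15* (0.049), *Ecsit* (0.10) and *Atpaf1* (-0.23) did not.

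Of 9 regulators of respiratory genes tested, only *Pprc1*, a coactivator on chromosome 19, was higher (0.68 ± 0.09), while *Nrf1* (-0.032), *Gabpa* (0.0012), *Gabpb1* (0.21), *Yy1* (-0.13) and *Esrra* (0.042) did not pass. *Gabpa* overlaps *Atp5j*, which was lower, on the other strand over 12.7% of the exonic bases of *Atp5j*, and reads from that stretch cannot be told apart without strand. Of 8 genes for transcription and upkeep of mitochondrial DNA, *Peo1* (0.63), *Tfb2m* (0.34) and *Ssbp1* (0.31) were higher, and *Tfam* (-0.14) and *Polrmt* (-0.21) did not pass. *Peo1* too lies on chromosome 19, and with chromosome medians removed *Pprc1* (0.29), *Peo1* (0.24) and *Ssbp1* (0.25) passed and *Tfb2m* (0.24) did not. *Esrra*, also on chromosome 19, passed as lower on that scale alone (-0.34), as did *Coq2* (-0.31) and the assembly factor *Cox18* (-0.36) among the genes above.

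Of the 13 partner messages encoded in mitochondrial DNA 9 were tested, with none higher and 4 lower, all of them complex I subunits: *mt-Nd5* (-0.33 ± 0.09), *mt-Nd1* (-0.27 ± 0.09), *mt-Nd6* (-0.24 ± 0.10) and *mt-Nd2* (-0.24 ± 0.09). *mt-Nd1* had 31827 and 30776 in WT and 28541 and 23213 in KO-labelled libraries, and *mt-Co1*, for the core of complex IV, had groups that overlapped (-0.054 ± 0.08). 4 messages had fewer than 10 counts over all libraries together, *mt-Co2* and *mt-Atp6* among them, in a table where *mt-Co1* was among the most abundant genes. How reads with several matches were handled is not stated in the sources used here, so mitochondrial messages with nuclear copies are uncertain.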

How the data were processed

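RNA-seq libraries were made by the authors with a stranded kit after removal of ribosomal RNA, read as paired 75-base reads, aligned to mm9 with STAR and assigned to GENCODE vM1 genes with featureCounts. The deposited values are raw counts per gene without normalization. Software versions, the strand setting and how multi-mapping reads were treated are not given in the sources used here, and labels and methods name different instruments. Total counts were 36667685 and 43835004 in WT and 54715889 and 61908422 in KO-labelled libraries, so low genes are least precise in WT.

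Groups came from the sample labels and columns were matched by name. The Wald test of DESeq2 1.42.0 (R 4.3.3) was run on all 37310 genes with group as the only term, its own size factors and its filter on low means, and p values were adjusted over the whole table by Benjamini-Hochberg, and only members and pathway genes are printed. Normalized counts are counts divided by size factors. Log2 fold changes are KO-labelled over WT with standard errors. Calls used an adjusted p under 0.05, or the study's fold change of at least 2 with an adjusted p under 0.001. On simulated counts for this comparison DESeq2 called 80% of 2-fold and 53% of 1.5-fold changes and 17 unchanged genes among 13048 tested, and edgeR 4.0.16 called 77%, 49% and 14 among 17199. The changed genes were drawn from all genes with a mean of at least 50. These rates therefore do not describe changes under 1.5-fold or genes as abundant as most members. Ratios and shares were compared by exact two-sided permutation tests over libraries. The ratio pairs were not part of the planned tests, and each printed pair holds a called member, so these ratios add no separate support to the calls.

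Members, pathway lists and marker lists were chosen with earlier results of these data known. The naming rule took *Spen*, up to 3 called members per complex and direction, fixed core subunits, isoform pairs and subunit c genes, and other members were named after their values were seen. Copies were counted as 48-base words of the longest coding transcript found elsewhere in mm9, and 34 members had at least 20% of bases in them. Of these, 11 were called higher and 3 lower, and the share is printed for only some of them. Another gene overlapped the exons of 18 members on the opposite strand and of 4 on the same strand. Gene positions are mm9, and promoter positions are RefSeq windows of GRCm38.p6. Alternatives tried were TMM and upper-quartile size factors, edgeR's quasi-likelihood test, a filter of 10 counts in 2 libraries, no independent filtering, the replicate number as a block, each library left out, removal of chromosome medians, removal of a trend on GC content and exonic length, and other sets of members. Figures were drawn with matplotlib 3.10.9. Single values of 1 member and of 1 neighbouring gene are not reported here, and both stay in all counts and medians.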

Additional observations from a re-analysis of the deposited data

How the results depend on the processing

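No member passed the fold change of 2 with an adjusted p under 0.001 under any alternative run, edgeR included. The count of 30 higher members became 18 with the replicate number as a block, 18 with chromosome medians removed and 14 to 23 with 1 library left out, and it was 26 to 36 under the other 6 settings. The count of 9 lower members became 2 with chromosome medians removed, 5 to 6 with 1 library left out, 7 with the block, and was 8 to 10 otherwise. Same-numbered libraries did not deviate together (correlation -0.018), so the numbers were not taken as pairs. All 18 higher and 7 lower members under the block were among those of the main test.

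The median of 0.075 over members became 0.11 with upper-quartile factors, 0.16 with the GC and length trend removed, 0.097 for members with under 20% of bases in copies and 0.068 to 0.11 with 1 library left out. Complex II, with 0.13 in the main test, had 0.23 with the trend removed, 0.066 with chromosome medians removed and 0.059 to 0.20 with 1 library left out. Complex III had 0.15 with upper-quartile factors, 0.097 in edgeR, 0.10 with the count filter, 0.15 with the trend removed and 0.21 for members with few copies. Complex IV had 0.22 with upper-quartile factors, 0.095 with chromosome medians removed and -0.11 for members with few copies, which are another set of 6 tested members, *Cox4i1*, *Cox4nb* and 4 tissue isoforms, without 9 of the 10 broadly expressed accessory subunits. Complex V ran from -0.053 to 0.027 with 1 library left out, reversed without WT replicate 2, and was reversed to 0.012 with upper-quartile factors and to 0.095 with the trend removed. The difference of the summed share, 0.065 percentage points, was 0.043 without mitochondrial genes and the 10 highest genes. *Ndufs7* (0.070), *Atp5b* (0.088) and *Atp5d* (0.019) reversed with chromosome medians removed. The causes were not tested. Of 474 values of single named genes under these settings, 400 kept their side of the threshold, 10 of them with a change of sign in values that passed under neither setting, 66 lost a call, 5 gained one and 3 called values reversed.

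With 2 libraries a group, called differences went down to 0.18 (log2) in abundant members, while tissue isoforms at low counts were not resolved. A lone library left in a group was assumed to vary like the others.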
